A study of Mus musculus with 41 samples.

Results

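The 300 genes described here are messenger RNAs that were named in one list of RNAs from immunoprecipitation of the RNA-binding protein CAPRIN1 and not in another. The authors' list that compares cells labelled CNT with cells in retinoic acid (RA) names 2171 gene symbols, their list that compares 2I with RA names 2503, and 1343 stand in both, which leaves 828 in the CNT list alone. Of these 828 symbols, 796 were in the RNA-seq count tables, and 7 ribosomal protein, collagen and laminin genes were left out. The remaining 789 were ranked by their mean CPM, the count of a gene scaled to a common library total, in the 4 wild-type (WT) libraries before α-amanitin, and the top 300 were kept. The tables hold 51410 genes in all. All 300 are protein coding in RefSeq and all 300 passed the filter on low counts in each comparison. The lists give symbols with no value and no direction, so whether CAPRIN1 held more or less of these RNAs in RA is not known from them.

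The study sequenced RNA of mouse embryonic stem cells of the R1 line, WT or carrying a Caprin1 knockout (KO), after 4 days in 1 µM RA without LIF, the cytokine that holds stem cells undifferentiated. All groups, the controls included, received that RA treatment, and then 2 µg/ml α-amanitin, a mushroom toxin that blocks RNA polymerase II, for 0, 2, 4 or 8 h. There were 4 WT libraries at each time and 2 of each of the KO lines clone 2 and clone 4, except that 1 clone 4 library had a column at 0 h. Each KO line is 1 clone, and nothing in the labels says that its 2 libraries came from separate cultures, so p-values measure the spread between these libraries, which may be technical.

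CAPRIN1 is a cytoplasmic protein that binds messenger RNAs together with G3BP1 and G3BP2 and takes part in stress granules, assemblies of untranslated messenger RNA and protein. RA is a vitamin A derivative that acts through nuclear receptors and drives embryonic stem cells into differentiation. When RNA polymerase II is blocked, a messenger RNA that is degraded fast loses share among the RNAs that remain and a stable one gains share, so levels over the hours of the drug are a relative measure of stability.

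Libraries held 3953468 to 31565738 counts at 0 h, 6359591 to 8371258 at 2 h, 3460172 to 10244834 at 4 h and 7240127 to 10566579 at 8 h. Caprin1 itself measured 834 to 1204 CPM in the 16 WT libraries, 104 to 174 CPM in the 8 libraries of clone 2 and 971 to 1169 CPM in the 7 of clone 4. Over all hours together, therefore, clone 2 and not clone 4 stood apart from WT by its Caprin1 RNA level, and clone 4 is called by its label below. By hour, clone 4 lay above WT at 4 h (1145 and 1169 against 953 to 1079 CPM). At 8 h it lay below WT (1018 and 1065 against 1150 to 1204 CPM). Each time has a table of its own, so the hour and the table cannot be told apart, whereas WT and clones of one hour lie in the same table. In the 4 h table, 48 genes, 30 of them for ribosomal proteins, were over 4-fold below every library of the other times in all 8 libraries, and no gene was at 0, 2 or 8 h; the cause was not tested. Actg1, for cytoplasmic γ-actin, was the 1 member among these 48, with 2.45 to 8.38 CPM at 4 h against 188 to 437 CPM at the other times. Changes over time are given from 2 h to 8 h, since the WT libraries at 0 h ranked the members. The fit behind these changes also held the 0 h and 4 h libraries. A list of primitive and parietal endoderm, the extraembryonic yolk sac lineages, held 25 markers. Of these, 23, 23 and 24 were called higher in clone 2 at 2, 4 and 8 h and 22, 21 and 21 in clone 4. Called means a false discovery rate under 0.05, as set out below. Of all genes, 31.8, 31.1 and 31.7% were called higher in clone 2 and 21.7, 24.6 and 20.4% in clone 4. The summed level of the endoderm markers at 2 h was 21038 to 23748 CPM in WT, 71005 to 75950 in clone 2 and 32624 to 33313 in clone 4. The sum of 18 fibroblast feeder markers was 1890 to 2024 CPM in WT, 1066 to 1174 in clone 2 and 4856 to 4966 in clone 4, and that of 16 neuroectoderm markers was 623 to 634, 148 to 152 and 491 to 494 CPM. The fibroblast sum and the calls went different ways in clone 2: of 17 of these markers tested at 2 h, 9 were called higher and 6 lower in clone 2 and 14 and 2 in clone 4. The abundant Acta2 was low in clone 2 (204 to 227 CPM over 2, 4 and 8 h against 787 to 1075 in WT). The sum of 20 pluripotency markers at 2 h was 1562 to 1704 CPM in WT, 3218 to 3339 in clone 2 and 1997 to 2077 in clone 4. Of 19 of them tested at 2 h, 11 were called higher and 4 lower in clone 2 and 13 and 0 in clone 4. The abundant Klf5 was high in clone 2 (635 to 1770 CPM over 2, 4 and 8 h against 169 to 439 in WT). Sox2 was low there (36.9 to 53.7 against 58.3 to 74.0). Of 21 genes of the retinoic acid response, 3 were called higher and 16 lower in clone 2 at 2 h and 2 and 10 in clone 4. Of 10 trophoblast markers tested, the counts were 3 and 7, and 2 and 7. Over all genes at 2 h, 31.8% were called higher and 30% lower in clone 2, and 21.7% and 19.6% in clone 4. The part of these marker differences in the results below was not tested, and fewer cells of a type cannot be told apart from less RNA per cell.

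The members were abundant messages with varied jobs. Their mean WT level at 0 h ran from 2039 CPM for Pabpc1, the cytoplasmic poly(A)-binding protein, to 119 CPM for Sbf2, with a median of 211 CPM. Next to Pabpc1 stood Akap12, a scaffold for protein kinases, Ldha, lactate dehydrogenase of glycolysis, Hspa5, the main chaperone of the endoplasmic reticulum, and Hnrnpa2b1, a nuclear RNA-binding protein. The members were chosen by these levels and by the lists of immunoprecipitated RNAs, so the levels are given as a description. The last members inside the limit were Cd9 at 119.3, Zfp395 at 118.9 and Sbf2 at 118.5 CPM, and symbols just outside it included Dbf4 at 117.2 and Acsl3 at 115.9 CPM. Together the members made up 7.79 to 9.47% of all counts in a library. By role lists, 34 members are splicing factors and other RNA-binding proteins, 29 act in chromatin and transcription, 20 in replication, nuclear transport and the cell cycle, 15 in signalling, 12 in ubiquitin and the proteasome and 10 in translation, and 138 are on no role list.

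In clone 2, the share of members that differed from WT was near that of other genes at or above the lowest member level. "Called" stands for a false discovery rate (FDR, Benjamini-Hochberg, over all genes tested) under 0.05 in edgeR's quasi-likelihood test. At 2 h 220 of 300 members were called in clone 2 against WT, 99 higher and 121 lower, where 61.8% of all genes tested (31.8% higher, 30% lower) and 74.9% of 1847 other genes at or above the lowest member level were called. At 4 h there were 235 (136 higher, 99 lower; all genes 61.9% in either direction, 31.1% higher and 30.8% lower) and at 8 h 222 (84 higher, 138 lower; all genes 63.6% in either direction, 31.7% higher and 31.8% lower). Of the other genes at member level, 74.3% were called at 4 h and 77.6% at 8 h. Here and below, this name means the set of genes at or above the lowest member level. That set has no upper limit, and ribosomal protein, collagen and laminin genes were not left out of it. The median log2 difference of the members was -0.04, 0.09 and -0.06 at the 3 times, near the median over all genes of 0.01, -0.01 and 0.00. The split by direction depends on scaling: with library totals in place of TMM factors the median of all genes in clone 2 shifted by -0.12, -0.18 and -0.15 on the log2 scale, and the members split into 68 higher and 160 lower at 2 h, 96 and 141 at 4 h and 57 and 192 at 8 h. With either scaling, members of clone 2 lay on both sides of WT.

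In clone 4 fewer members were called: 168 members were called at 2 h (85 higher, 83 lower; all genes 41.3% in either direction, 21.7% higher and 19.6% lower), 195 at 4 h (126 higher, 69 lower; all genes 47.1% in either direction, 24.6% higher and 22.5% lower) and 155 at 8 h (68 higher, 87 lower; all genes 37.5% in either direction, 20.4% higher and 17.1% lower). Of the other genes at member level, 58.3, 59.2 and 53.3% were called at these times. With library totals the clone 4 members split into 68 higher and 95 lower, 97 and 93, and 47 and 132. Over all 3 times, 68 members stayed called higher and 86 lower in clone 2 (all genes 21.4% and 21.4%, other genes at member level 22.9% and 28.7%), and 42 higher and 45 lower in clone 4 (all genes 13% and 8.71%, other genes at member level 16.2% and 15.4%), while 8 were called in no clone at any time (all genes 9.04%, other genes at member level 1.79%). The plot of shares called places the members beside the other genes at member level in each comparison.

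**Figure D1:**
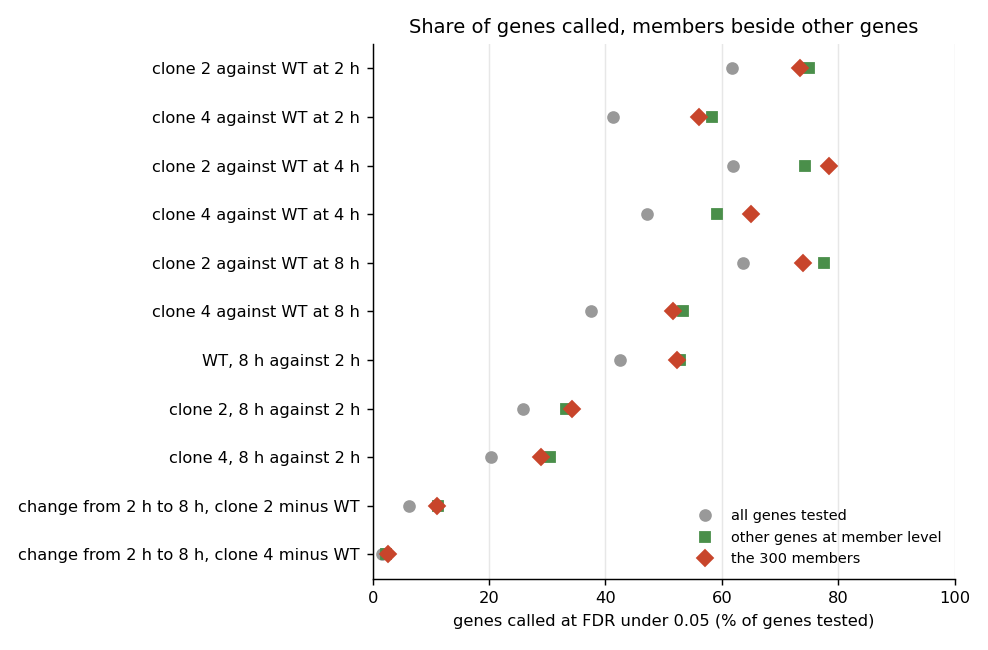
Share of genes called at FDR under 0.05 (x axis, % of genes tested) in 11 comparisons (y axis) for all genes tested (circles), 1847 other genes at or above the lowest member level (squares; 1846 at 4 h) and the 300 members (diamonds). The diamonds lie close to the squares and to the right of the circles, for example at 220 of 300 members in clone 2 at 2 h, where 74.9% of the other genes at member level were called.

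When both clones were pooled as KO, 113 members were called at 2 h (55 higher, 58 lower; all genes 31.5% in either direction, 17% higher and 14.6% lower), 152 at 4 h (103 higher, 49 lower; all genes 36.3% in either direction, 19.4% higher and 16.9% lower) and 70 at 8 h (28 higher, 42 lower; all genes 17.3% in either direction, 10.3% higher and 7.06% lower). Of the other genes at member level, 40.5, 44.6 and 22.9% were called. With library totals these split into 34 higher and 72 lower, 64 and 82, and 15 and 78, and the median of all genes shifted by -0.08, -0.14 and -0.11. The pooled calls rest on the number of WT libraries: with WT replicates 1 and 2 only, 28, 68 and 0 members were called, and with WT replicates 3 and 4 only, 13, 29 and 0. Each of these 0 counts came from edgeR's test and stands beside 65 and 63 members with an unadjusted p under 0.05. Results are therefore given by clone.

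Among the members that exceeded WT in clone 2, the largest differences included genes of the cell surface, the matrix and the secretory path. Pdgfra (ENSMUSG00000029231.15, chr5:75151322-75198206 in GRCm38), the α receptor for platelet-derived growth factor and one of the endoderm markers, measured 159, 142, 156 and 146 TMM-scaled CPM in the WT libraries at 2 h, 545 and 542 in clone 2 and 283 and 249 in clone 4. Clone 2 was highest, clone 4 in between, and no libraries of the 3 lines overlapped. The log2 difference from WT was 1.86 (SE 0.0553) in clone 2 and 0.82 (SE 0.0587) in clone 4 (FDR 3.6e-34 and 3.3e-17, edgeR's quasi-likelihood test). At 8 h clone 2 reached 914 and 919 against 179 to 204 in WT.

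Gata4 (ENSMUSG00000021944.15, chr14:63198914-63271712), a transcription factor of endoderm and heart and also on the marker list, measured 195, 153, 179 and 170.1 in WT at 2 h, 551 and 544 in clone 2 and 274 and 245 in clone 4. Both clones lay above every WT library, clone 2 the further. The log2 differences at 2, 4 and 8 h were 1.66, 1.88 and 1.90 in clone 2 and 0.58, 0.49 and 0.35 in clone 4, all called. The clone 4 call at 8 h was lost without clone 4 replicate 1 (log2 0.22, FDR 0.138) and without either clone 2 library (0.35, FDR 0.0818 and 0.0802).

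Adamts9 (ENSMUSG00000030022.14, chr6:92772699-92944450) encodes a secreted protease that cuts matrix proteoglycans. Its WT libraries held 124, 127, 137 and 112 at 2 h and 188, 191, 204 and 214 at 8 h, and clone 2 held 372 and 369.9 and then 961 and 1029.7. The gap between clone 2 and WT widened over these hours, and no clone 2 library came near the WT range. In clone 4 it measured 194 and 191 at 2 h and 245 and 211 at 8 h, so that at the later time it reached into the WT range. The log2 differences were 1.58, 1.54 and 2.33 in clone 2 and 0.62, 0.78 and 0.22 in clone 4, where the call at 8 h was lost without clone 4 replicate 1 (0.10, FDR 0.23) and with WT replicates 3 and 4 only.

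Cd9 (ENSMUSG00000030342.8, chr6:125460266-125494760) encodes a tetraspanin, a membrane protein that organises surface receptors. It measured 133, 132, 129 and 129 in WT at 4 h, 389 and 368 in clone 2 and 250.5 and 263 in clone 4. As with Pdgfra the order was clone 2, clone 4, WT, with no overlap. Its log2 differences were 1.29, 1.51 and 1.47 in clone 2 and 0.80, 0.97 and 0.66 in clone 4 at 2, 4 and 8 h.

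Flrt3, a leucine-rich membrane protein of cell contacts, differed from WT by 1.55, 1.44 and 1.42 in clone 2 and 0.37, 0.52 and 0.39 in clone 4. Rrbp1, a ribosome-binding protein of the endoplasmic reticulum, differed by 1.17, 1.45 and 1.37 in clone 2 and by 0.42, 0.70 and 0.39 in clone 4. Tfpi, an inhibitor of blood coagulation, was higher in both clones, by 0.94, 1.00 and 0.57 in clone 2 and by 0.85, 1.01 and 0.47 in clone 4. Vegfa, the growth factor of blood vessels, differed by 0.99, 1.14 and 1.06 in clone 2 and by 0.23, 0.64 and 0.37 in clone 4. All of these were called at each time, except that Vegfa in clone 4 at 2 h lost its call without clone 4 replicate 2 (0.22, FDR 0.0616). Pdgfra, Gata4, Adamts9 and the other members named in these paragraphs were picked because both clones were called on the same side of WT at every time, and both comparisons share the WT libraries, so their common direction is part of the choice.

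The members furthest below WT in clone 2 included genes of the cytoskeleton, growth factor signalling and Wnt signalling. Dbn1 (ENSMUSG00000034675.17, chr13:55473428-55488126) encodes drebrin, which binds actin filaments in neurites. It measured 237, 245, 220.2 and 225 in WT at 2 h, 33.4 and 33.6 in clone 2 and 168 and 166 in clone 4. Clone 2 was far the lowest and clone 4 fell between it and WT, with no overlap. The log2 differences were -2.78 (SE 0.0746) and -0.48 (SE 0.0589) at 2 h and -2.54 and -0.41 at 8 h.

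Igfbp4 (ENSMUSG00000017493.12, chr11:99040005-99052655) encodes a secreted protein that binds insulin-like growth factors. It stood at 146, 126, 128 and 137 in WT at 2 h, at 26 and 29.1 in clone 2 and at 77.9 and 73.7 in clone 4. The order WT, clone 4, clone 2 held for every library at 2, 4 and 8 h. The log2 differences were -2.28, -2.51 and -2.57 in clone 2 and -0.82, -0.83 and -0.83 in clone 4. Igf2 (ENSMUSG00000048583.16, chr7:142650768-142666816), the imprinted growth factor that such proteins bind, measured 135, 133, 124 and 125 in WT at 2 h, 26.3 and 27.9 in clone 2 and 35.7 and 37.1 in clone 4. For Igf2 both clones lay far below every WT library, with log2 differences of -2.24, -1.56 and -1.20 in clone 2 and -1.83, -1.39 and -1.16 in clone 4, which became smaller from 2 h to 8 h.

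Wls, the carrier that brings Wnt proteins to the cell surface, differed by -1.66, -1.92 and -2.24 in clone 2 and -0.44, -0.54 and -0.35 in clone 4. Ptk7, a receptor-like protein of planar cell polarity, differed by -1.25, -1.37 and -1.22 in clone 2 and by -0.54, -0.68 and -0.25 in clone 4. Foxp1, a forkhead transcription factor, differed by -2.06, -2.27 and -2.66 in clone 2 and by -0.40, -0.34 and -0.31 in clone 4, and its call in clone 4 at 4 h was lost without clone 4 replicate 2 (-0.22, FDR 0.0543). Mex3a, an RNA-binding ubiquitin ligase, differed by -2.01, -2.27 and -2.0 in clone 2 and by -0.71, -0.65 and -0.47 in clone 4, and Zfp423, a zinc finger factor of neural and fat lineages, by -1.67, -1.47 and -1.18 in clone 2 and by -0.57, -0.64 and -0.51 in clone 4. In each of these the estimate for clone 2 lay further from 0 at all 3 times; the difference between the clones was not tested.

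**Figure D2:**
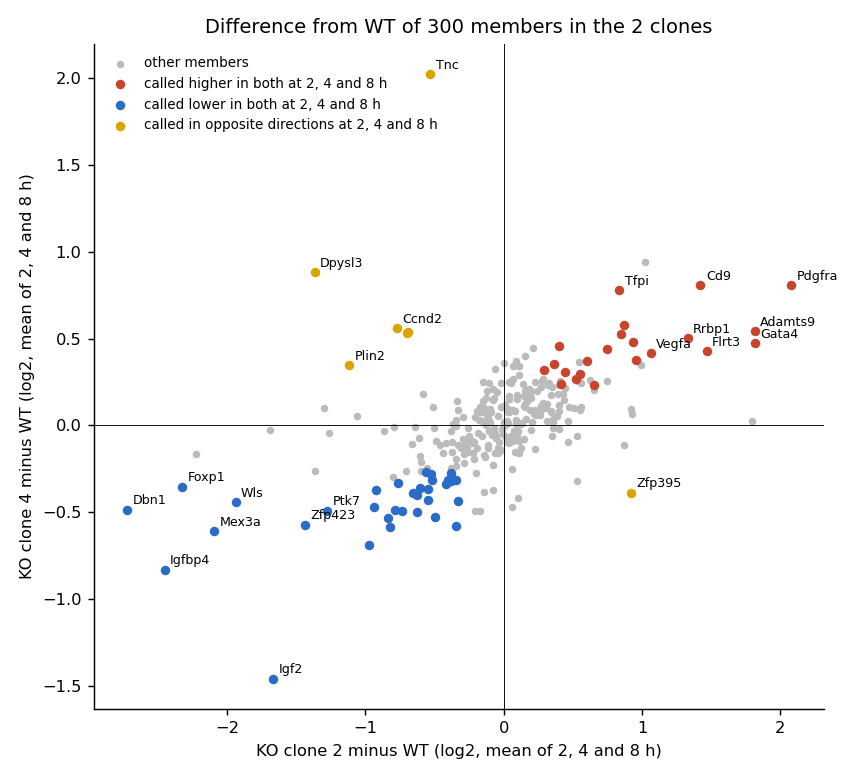
Each point is 1 of the 300 members, placed by its log2 difference from WT in clone 2 (x axis) and in clone 4 (y axis), each the mean of 2, 4 and 8 h; colours mark members called in both clones at all 3 times and both axes use the same WT libraries. Pdgfra, Adamts9 and Gata4 lie at the upper right, Dbn1, Igfbp4 and Foxp1 at the left and below 0, and Tnc and Dpysl3 at the upper left.

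Some members went opposite ways in the clones. Tnc (ENSMUSG00000028364.15, chr4:63959785-64047015), the matrix protein tenascin C, measured 246, 259, 225 and 261 in WT at 2 h, 204 and 185 in clone 2 and 1101 and 1067 in clone 4. Both clone 4 libraries were far above WT, while both clone 2 libraries lay below the lowest WT library. The log2 differences were -0.34, -0.50 and -0.75 in clone 2 and 2.13, 2.01 and 1.93 in clone 4. Tenascin C is made by fibroblasts, whose marker sum was also highest in clone 4; its part in this difference was not tested.

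Dpysl3, a microtubule-binding protein of growing axons, measured 212, 212, 202 and 204 in WT at 8 h, 87 and 90.7 in clone 2 and 432 and 429 in clone 4. Its libraries fell into 3 separate levels, with clone 2 lowest and clone 4 highest. Ccnd2, cyclin D2 of the G1 phase, differed by -0.66, -0.64 and -1.02 in clone 2 and 0.50, 0.60 and 0.59 in clone 4, and Plin2, a coat protein of lipid droplets, by -1.20, -1.12 and -1.03 in clone 2 and by 0.30, 0.23 and 0.51 in clone 4. The call of Plin2 in clone 4 at 4 h was lost with library totals (0.14, FDR 0.0725). Zfp395, a zinc finger protein, was the reverse case, at 74.8, 67.9, 67.6 and 63.4 in WT at 2 h, 124 and 120.0 in clone 2 and 47.9 and 49.5 in clone 4. Its log2 differences were 0.85, 0.95 and 0.97 in clone 2 and -0.49, -0.38 and -0.29 in clone 4, and in clone 4 the calls at 4 h and 8 h were lost without clone 4 replicate 1 (-0.29, FDR 0.0558) and replicate 2 (-0.21, FDR 0.055), respectively.

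**Figure D3:**
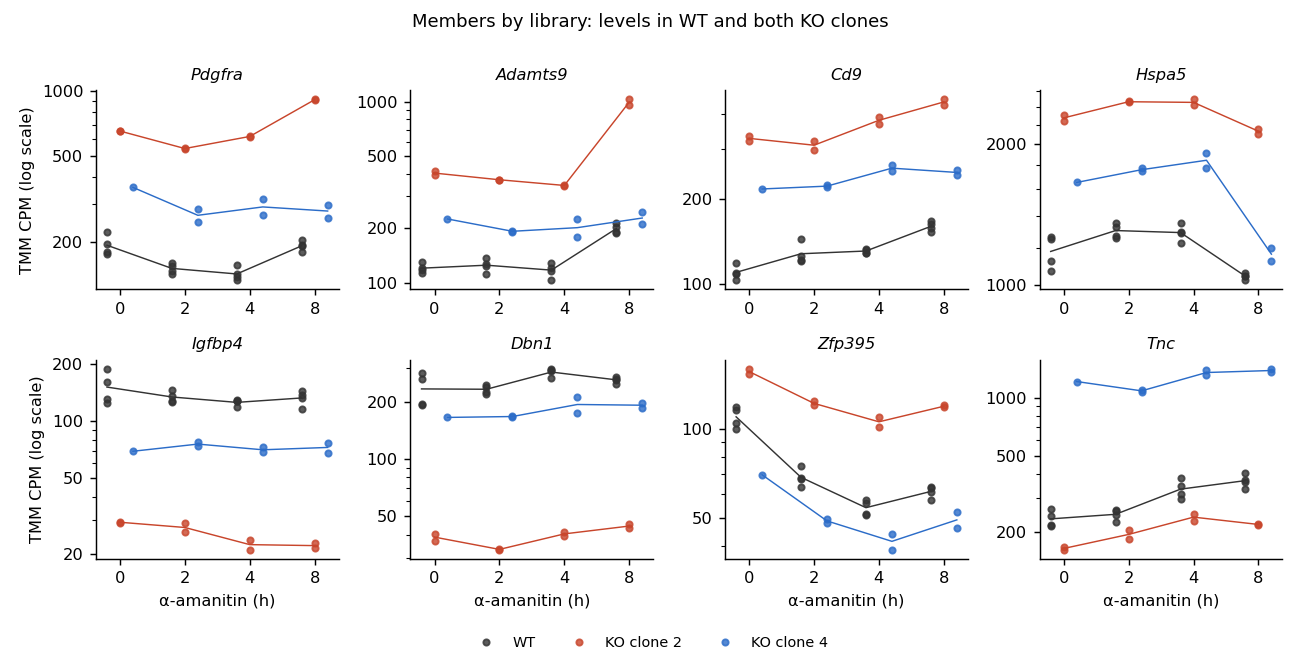
TMM-scaled CPM (y axes, log scale) of 8 members in each library (points) at 0, 2, 4 and 8 h of α-amanitin (x axis, hours, evenly spaced), with a line through the mean of each line at each time. Clone 2 is highest for Pdgfra, Adamts9, Cd9, Hspa5 and Zfp395 and lowest for Igfbp4, Dbn1 and Tnc, and clone 4 is highest for Tnc, at 1101 and 1067 at 2 h.

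Promoters of a few of these members are shown because their RNAs stood far to one side of WT in both clones. Of the 300 members, 241 had a promoter entry in RefSeq (build GRCm38.p6). Each was a window of 250 bases before and 50 after the first start listed for the gene. The letters GGGCGG, the core of a GC box, occurred on either strand in 79.3% of these windows, in 74.2% of 1486 other genes at member level and in 35.9% of all 27025 windows. The letters TATAAA, the core of a TATA box, occurred in 5.81%, 5.92% and 14.2%, and CCAAT in 40.7%, 40.1% and 37.9%. The members thus looked like other abundant genes in these letters. The lines that follow give the 250 bases before the start, 5′ to 3′ on the gene's own strand, for Cd9 (RefSeq's start, chr6:125494761-125495010, minus strand), Dbn1 (chr13:55488077-55488326, minus strand) and Igfbp4 (chr11:99040994-99041243, plus strand), with GGGCGG or its complement CCGCCC and TATAAA in capitals.
Cd9: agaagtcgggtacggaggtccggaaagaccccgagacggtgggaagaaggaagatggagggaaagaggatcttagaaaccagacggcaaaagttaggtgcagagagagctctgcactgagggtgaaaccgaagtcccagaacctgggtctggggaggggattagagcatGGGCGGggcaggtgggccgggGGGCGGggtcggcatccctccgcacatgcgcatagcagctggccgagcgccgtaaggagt
Dbn1: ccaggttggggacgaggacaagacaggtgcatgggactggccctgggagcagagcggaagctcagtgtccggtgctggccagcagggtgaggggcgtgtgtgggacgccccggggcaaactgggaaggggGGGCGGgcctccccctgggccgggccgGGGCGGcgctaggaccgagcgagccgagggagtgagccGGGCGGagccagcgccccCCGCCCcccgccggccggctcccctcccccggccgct
Igfbp4: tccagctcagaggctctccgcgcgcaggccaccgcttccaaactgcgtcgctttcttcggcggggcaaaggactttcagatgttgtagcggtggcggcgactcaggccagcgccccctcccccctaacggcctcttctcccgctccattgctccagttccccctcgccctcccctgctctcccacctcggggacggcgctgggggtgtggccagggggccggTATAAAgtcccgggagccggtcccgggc
Cd9 holds 2 and Dbn1 holds 4 of the GC box letters, and Igfbp4 holds 1 TATAAA near the start and no GGGCGG. Cd9, high in both clones, and Dbn1, low in both, thus carry the same letters, and a match is a description of the sequence alone. The Igfbp4 window lies inside the gene interval given above, and the Dbn1 window overlaps its interval. These matches therefore hold for the listed start that was used.

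Most members of the secretory path were called higher in clone 2. Of 7 members on the list of membrane traffic and secretion, 7, 6 and 6 were called higher in clone 2 at 2, 4 and 8 h and 5, 5 and 2 in clone 4, with none called lower (all genes higher 31.8, 31.1 and 31.7% in clone 2 and 21.7, 24.6 and 20.4% in clone 4). The higher counts with library totals were 6, 6 and 6 and 4, 4 and 1. Their median log2 difference was 0.52, 0.60 and 0.38 in clone 2 and 0.20, 0.33 and 0.11 in clone 4. Ssr3, a subunit of the translocon-associated complex of the endoplasmic reticulum, measured 519, 556, 612 and 570.2 in WT at 2 h, 959 and 976 in clone 2 and 799 and 759 in clone 4. All libraries of both clones exceeded the WT libraries at that time. Its log2 difference in clone 4 was 0.13 (SE 0.0439) at 8 h and there lost its call without clone 4 replicate 1 (0.09, FDR 0.228), WT replicate 2 (0.11, FDR 0.0939) or WT replicate 3 (0.12, FDR 0.0556), with library totals (0.06, FDR 0.34), with no filter on low counts, with the replicate block and with either pair of WT libraries. Arf1, the GTPase of Golgi vesicle budding, differed by 0.52, 0.46 and 0.53 in clone 2 and by 0.12, 0.15 and 0.03 in clone 4, of which the 4 h value alone was called and lost its call without clone 4 replicate 1 (0.16, FDR 0.117) or 2 (0.13, FDR 0.204), clone 2 replicate 1 or 2, or WT replicate 1 or 3, with library totals (0.05, FDR 0.44), with no filter and with WT replicates 3 and 4 only. Vps35, a subunit of the retromer that returns cargo from endosomes, differed by 0.63, 0.60 and 0.38 in clone 2 and by 0.31, 0.39 and 0.07 in clone 4, the last not called.

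The balance of the chaperones varied with the hour. Of 7 chaperone members, 3 were called higher and 2 lower in clone 2 at 2 h, 5 and 0 at 4 h and 2 and 3 at 8 h, and in clone 4 the counts were 4 and 0, 6 and 0, and 2 and 1 (all genes higher 31.8, 31.1 and 31.7% in clone 2 and 21.7, 24.6 and 20.4% in clone 4). With library totals they were 2 and 3, 3 and 2, and 1 and 5 in clone 2, and 3 and 0, 5 and 1, and 1 and 1 in clone 4. Hspa5 measured 1274, 1261, 1332 and 1358 in WT at 2 h, 2465 and 2458 in clone 2 and 1776 and 1748 in clone 4. Both clones lay above every WT library, and clone 2 was highest. Its log2 differences were 0.93, 0.90 and 1.04 in clone 2 and 0.43, 0.51 and 0.19 in clone 4. Hspa9, the chaperone of the mitochondrial matrix, differed by 0.26, 0.43 and 0.19 in clone 2 and by 0.31, 0.49 and 0.15 in clone 4, and at 8 h neither was called with library totals (0.03, FDR 0.525, and 0.08, FDR 0.126). Hspa4, a cytosolic chaperone, differed by -0.03, 0.16 and -0.02 in clone 2, of which the 4 h value was called, lost its call without clone 2 replicate 1 (0.19, FDR 0.0592) or 2 (0.14, FDR 0.172), with no filter and with WT replicates 3 and 4 only, and was -0.020 with library totals. In clone 4 Hspa4 differed by 0.17, 0.31 and -0.03; the last was not called, and the 2 h call was lost without clone 4 replicate 1 (0.16, FDR 0.0919) or 2 (0.18, FDR 0.0547) and with library totals (0.12, FDR 0.0588).

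The RNA-binding members, like the 300 members as a whole, had most higher calls at 4 h. Of the 34 splicing and RNA-binding members, 13 were higher and 9 lower in clone 2 at 2 h, 18 and 6 at 4 h, and 9 and 14 at 8 h. In clone 4 the counts were 6 and 6, 14 and 4, and 1 and 10. Of all genes, 31.8, 31.1 and 31.7% were higher and 30, 30.8 and 31.8% lower in clone 2 and 21.7, 24.6 and 20.4% and 19.6, 22.5 and 17.1% in clone 4. Of the 300 members the counts were 99 and 121, 136 and 99, and 84 and 138 in clone 2 and 85 and 83, 126 and 69, and 68 and 87 in clone 4. The RNA-binding counts with library totals were 8 and 16, 10 and 10, and 5 and 25 in clone 2, and 4 and 9, 10 and 9, and 0 and 18 in clone 4, so the excess of higher over lower members at 4 h depends on the scaling. Hnrnpa2b1 measured 1049, 976, 1042 and 1215 in WT at 4 h, 1432 and 1488 in clone 2 and 1434 and 1516 in clone 4, above every WT library. At 8 h its log2 difference was 0.22 (SE 0.0427) in clone 2 and 0.02 (SE 0.043) in clone 4, the latter not called. With library totals the clone 2 value was 0.07 and not called (FDR 0.186). Ddx3x, a helicase that opens messenger RNA for translation, differed by 0.18, 0.42 and -0.12 in clone 2 and 0.18, 0.40 and 0.03 in clone 4, the last not called. For Ddx3x the clone 2 calls at 2 h and 8 h were lost without clone 2 replicate 2 (0.16, FDR 0.0645) and replicate 1 (-0.07, FDR 0.257). The 8 h call was also lost without WT replicate 2 or 3, with no filter and with either pair of WT libraries, and the clone 4 call at 2 h without clone 4 replicate 1 (0.16, FDR 0.118). With library totals Ddx3x was called at 2 h neither in clone 2 (0.06, FDR 0.387) nor in clone 4 (0.14, FDR 0.0515). Rbm26, named after its values were seen, was the RNA-binding member furthest above WT in clone 2, by 1.74, 2.05 and 1.59, and was not called in clone 4 (-0.07, 0.13 and 0.02).

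Of the 10 translation members, 5 were called higher and 3 lower in clone 2 at 2 h, 7 and 1 at 4 h and 4 and 3 at 8 h, and 4 and 1, 6 and 0, and 4 and 2 in clone 4 (all genes higher 31.8, 31.1 and 31.7% in clone 2 and 21.7, 24.6 and 20.4% in clone 4). With library totals the counts were 3 and 4, 4 and 2, and 4 and 3 in clone 2, and 3 and 1, 6 and 1, and 3 and 3 in clone 4. Pabpc1 measured 1757, 1881, 1796 and 1833 in WT at 4 h, 2144 and 2176 in clone 2 and 2422 and 2388 in clone 4, with no overlap. Eif3a, the largest subunit of an initiation factor, measured 1093, 1123, 1125 and 1192, 1651 and 1762 and 1501 and 1601 in the same order. At 2 h the differences of Eif3a were smaller, 0.17 (SE 0.0533) in clone 2 and 0.09 (SE 0.0536) in clone 4, the latter not called, and the clone 2 call was lost without clone 2 replicate 2 (0.13, FDR 0.124). With library totals neither Pabpc1 in clone 2 at 4 h (0.04, FDR 0.511) nor Eif3a in clone 2 at 2 h (0.05, FDR 0.449) was called.

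A list of 34 genes for CAPRIN1 itself, its known partners and other stress granule proteins holds 9 of the members, among them Pabpc1, Ddx3x, G3bp2, Ddx6, Strap, Igf2bp2, Xrn2 and Lsm14a. Over the whole list 11 genes were called higher and 14 lower in clone 2 at 2 h, 16 and 7 at 4 h and 8 and 16 at 8 h, against 9 and 10, 14 and 4, and 7 and 11 in clone 4 (all genes higher 31.8, 31.1 and 31.7% and lower 30, 30.8 and 31.8% in clone 2, and 21.7, 24.6 and 20.4% and 19.6, 22.5 and 17.1% in clone 4). Caprin1, which is no member, is counted in them: it was called lower in clone 2 at each hour, and in clone 4 higher at 4 h and lower at 8 h. G3bp2, a direct partner of CAPRIN1, differed by 0.09, 0.19 and -0.17 in clone 2, of which the first was not called, and by 0.21, 0.28 and -0.04 in clone 4, of which the last was not called. Igf2bp2, which binds and stabilises messenger RNAs, was higher in clone 2 (0.55, 0.69 and 0.35) and in clone 4 lay below WT at 2 and 8 h (-0.42, -0.16 and -0.38, the 4 h value not called). Ddx6, a helicase of messenger RNA decay, differed by -0.01, 0.15 and 0.10 in clone 2, the first not called, and by -0.07, 0.06 and -0.16 in clone 4, of which the 8 h value alone was called.

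More chromatin members were called lower than higher in clone 4 at each hour. Of 29, 4 were higher and 16 lower in clone 4 at 2 h, 8 and 12 at 4 h and 4 and 14 at 8 h, where 21.7, 24.6 and 20.4% of all genes were higher and 19.6, 22.5 and 17.1% lower. Of the 300 members, 85 and 83, 126 and 69, and 68 and 87 were higher and lower. Chromatin counts with library totals were 4 and 17, 7 and 13, and 3 and 19. In clone 2, with TMM factors, they were 10 and 14, 15 and 11, and 7 and 15 (all genes higher 31.8, 31.1 and 31.7%, lower 30, 30.8 and 31.8%), and with library totals 7 and 15, 10 and 13, and 5 and 18, which turns the balance at 4 h. Arid1a, a subunit of the BAF nucleosome remodeller, measured 627, 688, 739 and 659 in WT at 4 h, 487 and 519 in clone 2 and 528 and 509 in clone 4, all clone libraries below WT. At 8 h its clone 4 difference of -0.13 (SE 0.0458) lost its call without either clone 4 library (-0.14, FDR 0.0728 and 0.0715), with the replicate block and with either pair of WT libraries. Dnmt3a, a de novo DNA methyltransferase, differed by -0.61, -0.69 and -0.67 in clone 2 and -0.29, -0.30 and -0.58 in clone 4. Zfp106 differed by -0.01, 0.22 and 0.00 in clone 2 and by -0.07, 0.28 and 0.06 in clone 4, called at 4 h only, and H3f3b, for the replacement histone H3.3, by 0.03, 0.42 and -0.05 in clone 2 and by -0.04, 0.19 and -0.11 in clone 4, likewise called at 4 h only. Without replicate 2 of the clone at 4 h, Zfp106 in clone 2 (0.20, FDR 0.0569) and H3f3b in clone 4 (0.15, FDR 0.178) lost their calls, as they did with library totals (0.03, FDR 0.658, and 0.10, FDR 0.18), and H3f3b also with WT replicates 3 and 4 only.

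Of the 12 ubiquitin and proteasome members, 2 were higher and 9 lower in clone 2 at 2 h, 3 and 6 at 4 h and 0 and 9 at 8 h, and 3 and 4, 3 and 5, and 0 and 5 in clone 4 (all genes lower 30, 30.8 and 31.8% in clone 2 and 19.6, 22.5 and 17.1% in clone 4). With library totals the counts were 1 and 9, 2 and 9, and 0 and 12 in clone 2 and 2 and 5, 3 and 6, and 0 and 8 in clone 4. Rnf44, a RING-type ubiquitin ligase, measured 313, 312, 291 and 299 in WT at 2 h, 194 and 195 in clone 2 and 223 and 239 in clone 4. Every clone library was below WT, and the log2 differences were -0.63, -0.44 and -0.50 in clone 2 and -0.40, -0.31 and -0.14 in clone 4. The clone 4 call at 8 h was lost without clone 4 replicate 1 (-0.13, FDR 0.103) or 2 (-0.15, FDR 0.0527) and with WT replicates 3 and 4 only. Trim71, a ubiquitin ligase and RNA-binding protein of pluripotent cells, differed in clone 4 by -0.30, -0.26 and -0.12 and in clone 2 by -0.16, -0.05 and -0.02, of which the first alone was called. For Trim71 these calls were thin: the clone 2 call was lost without clone 2 replicate 2 (-0.11, FDR 0.222) or WT replicate 4 (-0.13, FDR 0.0505), and in clone 4 the 4 h call without clone 4 replicate 2 (-0.22, FDR 0.051) and the 8 h call without either clone 4 library (-0.14, FDR 0.0706, and -0.11, FDR 0.165) or WT replicate 2 or 4, with DESeq2, with the replicate block and with either pair of WT libraries.

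Both glycolysis members were low in clone 4. Ldha measured 1245, 1315, 1155 and 1239 in WT at 2 h, 1309 and 1261 in clone 2 and 847 and 871 in clone 4. At 2 h clone 2 lay within the WT range and clone 4 below it. The log2 differences of clone 4 were -0.53, -0.52 and -0.36 at 2, 4 and 8 h. In clone 2 Ldha was called higher at 8 h, a call lost without clone 2 replicate 1 (0.18) and with library totals (0.05, FDR 0.492). Gpi1, glucose-6-phosphate isomerase, differed in clone 4 by -0.69, -0.58 and -0.21 and in clone 2 by -0.26, -0.27 and 0.02, the last not called, and its clone 4 call at 8 h was lost without clone 4 replicate 2 (-0.15, FDR 0.0501). In the actin group, Actr2 of the Arp2/3 complex was higher in both clones at 2 h, at 545 and 559 in clone 2 and 529.9 and 514 in clone 4 against 338, 342, 376 and 378 in WT. Capzb, which caps actin filaments, was lower in clone 2 (-0.41, -0.40 and -0.20) and Cap1, which recycles actin monomers, was higher in clone 4 (0.34, 0.41 and 0.32). The mitochondrial members Slc25a3, the phosphate carrier, and Cs, citrate synthase, differed in clone 2 by -0.17, -0.39 and 0.09 (the last not called) and -0.34, -0.37 and -0.31. The Slc25a3 call at 2 h was lost without clone 2 replicate 2 (-0.10, FDR 0.284). Serpine2, a secreted inhibitor of serine proteases, differed by -1.19, -1.39 and -1.33 in clone 2 and was not called in clone 4 (0.12, 0.08 and 0.10).

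Among surface proteins, Ptprf, a receptor tyrosine phosphatase of cell contacts, measured 636, 615, 547 and 606 in WT at 2 h, 313 and 311 in clone 2 and 379 and 398 in clone 4, all clone libraries below all WT libraries. Its log2 differences were -0.93, -0.82 and -0.59 in clone 2 and -0.63, -0.60 and -0.22 in clone 4. Epha2, an ephrin receptor, differed by 0.26, 0.21 and 0.57 in clone 4 and in clone 2 was called at 4 h alone (-0.09, 0.34 and 0.07). Its clone 4 call at 4 h was lost without clone 4 replicate 1 (0.20, FDR 0.0636) and with library totals (0.11, FDR 0.116).

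Before α-amanitin Pdgfra, Dbn1 and Tnc stood on the same sides of WT. This is a description with no test, since these WT libraries ranked the members, and it does not cover the other members. The median log2 difference of the members at 0 h was 0.01 in clone 2 and 0.12 in the 1 library of clone 4. Pdgfra stood at 179, 176, 196 and 222 in WT, 653 and 657 in clone 2 and 359 in clone 4 at 0 h, and Dbn1 at 284, 262, 194 and 192, 40.4 and 37.2 and 165. Tnc measured 263, 242, 216 and 217, 162 and 167 and 1212. The order of the lines was thus that seen under the drug for these genes.

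From 2 h to 8 h of α-amanitin, members moved both up and down relative to the other RNAs. In WT 157 members were called, 77 higher and 80 lower at 8 h (all genes 42.5% in either direction, 21.2% higher and 21.3% lower; other genes at member level 52.8%). In clone 2 there were 103 (43 higher, 60 lower; all genes 25.8% in either direction, 12.6% higher and 13.2% lower; other genes at member level 33.3%) and in clone 4 87 (27 higher, 60 lower; all genes 20.4% in either direction, 9.1% higher and 11.3% lower; other genes at member level 30.5%), from 2 libraries a time against 4 in WT. With library totals the split was 97 and 73 in WT and 35 and 48 in clone 4. Called lower in all 3 lines were 39 members (all genes 5.25%, other genes at member level 8.07%), and higher in all 3 were 7 (all genes 3.93%, other genes at member level 5.36%), while 106 were called in none (all genes 45.7%, other genes at member level 31.8%). The 3 lines have separate libraries at both times. Leaving out 1 clone 4 library at 2 or 8 h brought the clone 4 count down to between 52 and 57.

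The members whose level fell most in WT included enzymes and regulators of signalling and transcription. Dhrs3 (ENSMUSG00000066026.14, chr4:144892534-144928209), an enzyme that returns retinaldehyde to retinol and is itself an RA target, measured 40.2, 39.5, 35.7 and 34.3 in WT at 2 h, 20, 18.7, 16.6 and 20.2 at 4 h and 4.13, 3.52, 3.88 and 4.14 at 8 h. In clone 2 it went from 35.2 and 37.9 at 2 h to 20.6 and 16.3 at 8 h, and in clone 4 from 49 and 60.5 to 10.1 and 11.7. WT and clone 2 overlapped at 2 h, and at 8 h every clone library was above every WT library. Every member had a mean of at least 118.5 CPM in WT at 0 h, so Dhrs3 had already fallen in WT by 2 h. No member's log2 change from 0 h to 8 h in clone 2 was below -1.58, so Dhrs3 was lower there than in WT at 0 h. The log2 change from 2 h to 8 h was -3.25 (SE 0.131) in WT, -1.0 (SE 0.139) in clone 2 and -2.33 (SE 0.146) in clone 4. The difference in change from WT was 2.26 (SE 0.2) in clone 2 (FDR 1.1e-09) and 0.92 (SE 0.212) in clone 4 (FDR 0.0197, edgeR's quasi-likelihood test), and the latter lost its call without clone 4 replicate 1 at 2 h (0.78, FDR 0.141) or replicate 2 at 8 h (0.82, FDR 0.18).

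Klf6 (ENSMUSG00000000078.7, chr13:5861489-5870393), a zinc finger factor of the early response to growth signals, fell from 597, 612, 672 and 659.6 in WT at 2 h to 269, 267, 248 and 256 at 8 h. The log2 changes were -1.29 (SE 0.0781) in WT, -1.83 (SE 0.112) in clone 2 and -1.33 (SE 0.11) in clone 4, all called. Amotl2, an angiomotin that tethers YAP at cell junctions, changed by -1.18, -1.78 and -0.90, and Btg2, which recruits deadenylases to messenger RNA, by -1.04, -0.49 and -0.92. Plk2, a polo-like kinase, was low in clone 2 throughout (log2 differences -2.29, -2.24 and -2.13), yet its change of -0.82 (SE 0.0775) was close to that of WT, -0.98 (SE 0.0511). Exoc4, a subunit of the exocyst, changed by -0.98, -0.86 and -0.77. For Plk2 and Exoc4 the difference in change from WT was not called in either clone (for Exoc4 0.12, SE 0.0862, and 0.21, SE 0.0838), although their levels in clone 2 were well below WT.

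**Figure D4:**
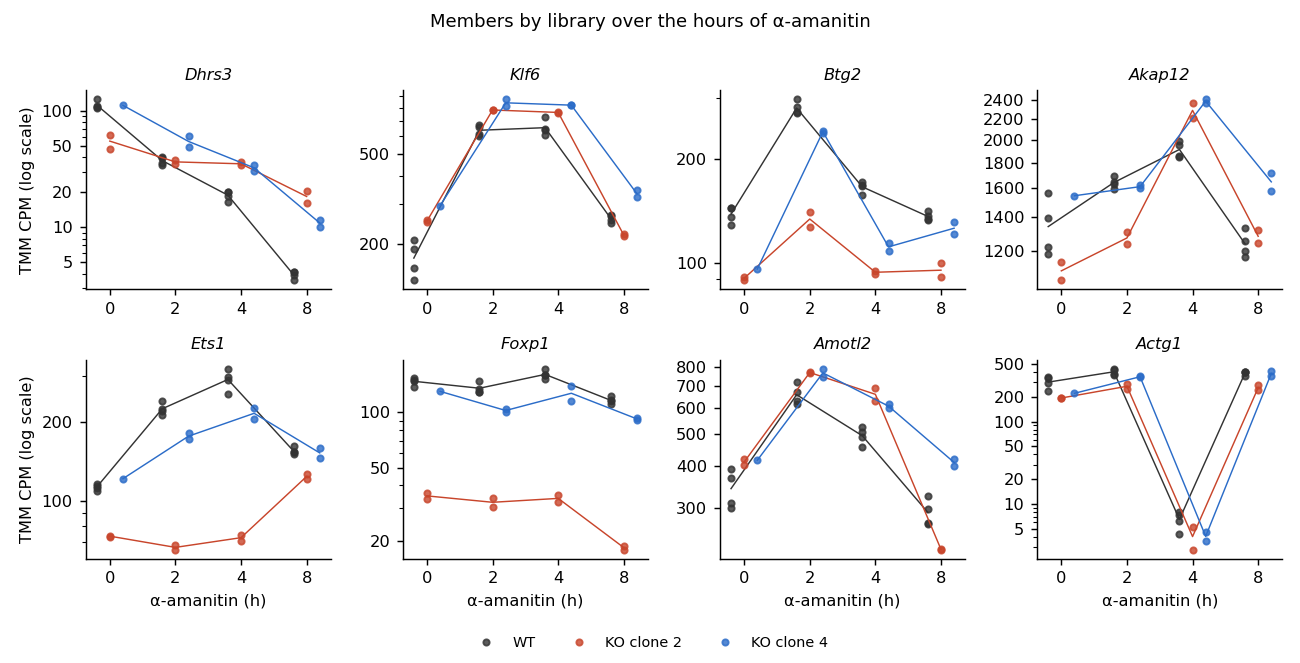
TMM-scaled CPM (y axes, log scale) of 8 members in each library (points) at 0, 2, 4 and 8 h of α-amanitin (x axis, hours, evenly spaced), with a line through the mean of each line at each time. Dhrs3 falls to 3.52 to 4.14 in WT at 8 h, when both clones are higher, while WT and clone 2 overlap at 2 h. Ets1 rises in clone 2 to 126 and 122, and Actg1 shows the low values of the 4 h table.

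The largest gains in WT were those of Adamts9 at 0.67 (SE 0.0701), Tnc at 0.58 (SE 0.0699) and Itch, a ubiquitin ligase, at 0.52 (SE 0.0742). Srsf7, a splicing factor, rose from 165, 176, 187 and 194 to 264, 251, 251 and 247 in WT. In the clones it did not pass the test, with changes of 0.04 (SE 0.0928) in clone 2 and 0.08 (SE 0.0939) in clone 4. Stag1, a cohesin subunit, and Actr3 of the Arp2/3 complex rose in WT by 0.49 (SE 0.0893) and 0.47 (SE 0.0644), and neither was called in a clone. The differences in change of Srsf7, Stag1 and Actr3 from WT are not given here. Each clone had fewer libraries than WT, so a call in WT alone does not show that the lines differ. Of the 15 signalling members, 9 were called higher and 0 lower in WT from 2 h to 8 h (all genes 21.2% and 21.3%), and 10 and 0 with library totals. In clone 2 and clone 4 the counts were 3 and 0, and 2 and 0, and 3 and 0 in each with library totals. Gnb1, a G protein subunit, was among the 9, with 601, 605, 614 and 616 in WT at 2 h and 679, 674, 693 and 688 at 8 h, a small change of 0.17 (SE 0.0446) that was nonetheless larger than the spread. Chromatin members went the other way, with 4 higher and 13 lower in WT, 2 and 11 in clone 2 and 1 and 10 in clone 4 (all genes lower 21.3, 13.2 and 11.3%). With library totals these were 5 and 12, 2 and 11, and 2 and 10.

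The difference in change between a clone and WT was called for few members. For clone 2 it was called for 33, 16 positive and 17 negative (all genes 6.23% in either direction, 3.31% higher and 2.93% lower; other genes at member level 11.3%), and for clone 4 for 8, 5 positive and 3 negative (all genes 1.68% in either direction, 0.997% higher and 0.681% lower; other genes at member level 2.27%). Leaving out 1 clone 2 library at 2 or 8 h brought the clone 2 count to between 16 and 21. In clone 4 leaving out replicate 1 at 2 h or replicate 2 at 8 h left 0 called by edgeR's test, beside 41 and 34 members with an unadjusted p under 0.05. A joint fit without the 0 h libraries, added after the data were seen, called 81 and 51, and one without the 4 h libraries called 4 in clone 4. Shares of all genes called in these added fits are not given here, so their counts do not set the members apart from other genes. The number of members called thus depends on which libraries enter the fit.

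Ets1 (ENSMUSG00000032035.16, chr9:32636241-32757820), a transcription factor, changed in opposite directions in WT and clone 2. In WT it went from 212, 224, 221 and 241 at 2 h to 154, 154, 150.4 and 162 at 8 h, and in clone 2 from 67.8 and 65.2 to 126 and 122. Clone 2 began far below WT and rose while WT fell, and its difference from WT narrowed from -1.74 to -0.32. The changes were -0.53 (SE 0.0552) and 0.90 (SE 0.0833), a difference of 1.43 (SE 0.0999) (FDR 5.3e-12, edgeR's quasi-likelihood test). In clone 4 the change was -0.21 (SE 0.0784), and its difference from WT of 0.32 (SE 0.0958) was not called.

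Tle3, a Groucho corepressor, fell in WT from 244, 227, 233 and 240.5 to 152, 152, 147 and 148 and rose in clone 2 from 204 and 200.2 to 279.6 and 273. Clone 2 crossed from below to above WT, with a difference in change of 1.11 (SE 0.105). In clone 4 Tle3 fell by 0.33 on the log2 scale. The difference for Igf2 of 1.05 (SE 0.287) lost its call whenever 1 clone 2 library at 2 h or 8 h was left out (FDR 0.0983 to 0.125) and in a fit without the 4 h libraries (FDR 0.0653). Btg2 and Akap12 also lost less in clone 2 than in WT, with differences of 0.55 (SE 0.0897) and 0.42 (SE 0.11).

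On the negative side in clone 2, Marcks, a membrane-bound substrate of protein kinase C, went from 89.7 and 103 to 50.2 and 59.6, while WT held 219, 234, 245 and 214 at 2 h and 248, 261, 269 and 264 at 8 h. The WT change of 0.19 (SE 0.0829) was not called and clone 2 changed by -0.81 (SE 0.13), a difference of -1.0 (SE 0.154). Foxp1 fell by 0.82 in clone 2 and 0.22 in WT on the log2 scale, a difference of -0.60 (SE 0.128). Amotl2 and Wls gave differences of -0.59 (SE 0.121) and -0.58 (SE 0.132). The calls of Dhrs3, Ets1, Tle3, Marcks, Foxp1, Amotl2 and Wls in clone 2 held in every fit that left out 1 library.

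In clone 4, Cdk12, a kinase of elongating RNA polymerase II, fell from 229, 248, 229 and 241 to 134, 138, 136 and 140.2 in WT and from 185 and 188 to 145 and 157 in clone 4, which moved from below to above WT. The difference in change was 0.48 (SE 0.0917). Akap12 changed in WT by -0.41 (SE 0.0636), which was called, and by 0.03 (SE 0.0897) in clone 4, which was not, a difference of 0.44 (SE 0.11), and Gpi1 gave 0.45 (SE 0.109). Slc25a5, the ATP and ADP carrier of mitochondria, gave -0.39 (SE 0.0987), Dnmt3a -0.31 (SE 0.0849) and Nup93, a nuclear pore protein, -0.31 (SE 0.0845). Like Dhrs3, all of these lost their call without clone 4 replicate 1 at 2 h or replicate 2 at 8 h, where Cdk12 gave 0.47 (FDR 0.059) and 0.42 (FDR 0.0715). For Gpi1, Akap12, Slc25a5, Dnmt3a and Nup93 leaving out single WT libraries at 2 h or 8 h, WT replicate 2 at either time among them, also ended the call. The calls of Dnmt3a and Nup93 also ended with RLE size factors (FDR 0.0619 and 0.0616), with no filter (0.251 and 0.264), with the replicate block (0.0556 and 0.0575) and with library totals (0.0561 and 0.057). Calls of Akap12, Slc25a5, Dnmt3a and Nup93 ended in a fit without the 4 h libraries (0.0526, 0.0627, 0.106 and 0.0997). The values kept their sign in each of those fits.

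**Figure D5:**
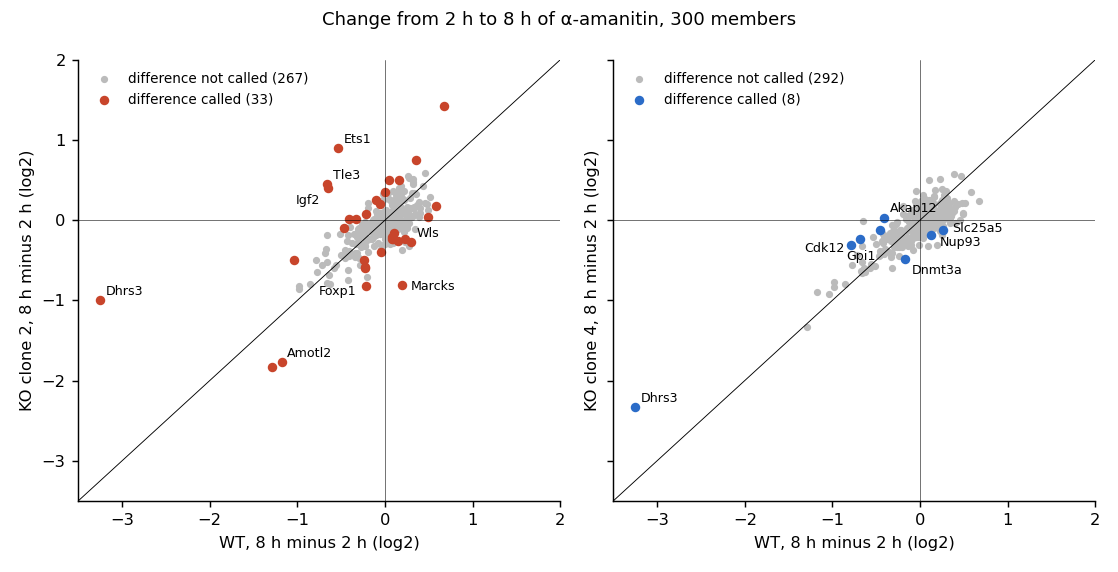
Log2 change from 2 h to 8 h of α-amanitin in WT (x axes) and in clone 2 (left) or clone 4 (right, y axes) for the 300 members, with the line of equal change; coloured points are members whose difference in change was called at FDR under 0.05. Most points lie near the line, Dhrs3 lies above it in both panels (-3.25 in WT, -1.0 in clone 2, -2.33 in clone 4), and Ets1 and Tle3 lie above 0 in clone 2 and below 0 in WT.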

How the data were processed

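RNA-seq libraries were made from total RNA with a stranded mRNA kit, per the labels' protocols. The authors deposited raw counts per gene in 1 table a time point, with 51520 lines, of which 110 repeated lines were dropped. The submitters' processing notes name STAR 2.4.0.1, FastQC 0.11.9, Cufflinks, Cuffdiff, TopHat and DESeq2 and the builds mm10 and GRCm38. Which tool made the counts, and with what strand setting, is not given in the sources used here, so overlapping genes and near-identical copies are uncertain. The symbol lists are the authors'.

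From the counts, edgeR 4.0.16 in R 4.3.3 (TMM, filterByExpr, robust quasi-likelihood F test) compared KO and each clone with WT within a time, and changes from 2 h to 8 h in 1 fit of 12 groups of line and time; genes with FDR under 0.05 over all genes were called. Levels of members by library are CPM with TMM factors. The ranking levels, Caprin1, the marker sums, Acta2, Nes, Sox11, Klf5, Sox2 and the Actg1 values quoted by hour are CPM of library totals. Log2 differences are edgeR's, with SE from its F statistic. Alternatives were DESeq2 1.42.0, RLE, no filter, the replicate block, pairs of WT libraries, leave-one-out and, added after seeing the data, library totals and joint fits without 0 h or 4 h libraries. The test was also run on simulated counts, and the outcome is not reported here. That run gave every gene the same spread and used larger changes than many described above, so it does not vouch for these calls. The differences at 0 h were described, not tested.

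The members and all lists were chosen with earlier results of these data known. Named members are the 10 highest, those at the limit, the largest called differences and changes by direction, and 3 of each role list; G3bp2, Igf2bp2, Ddx6 and Rbm26 were named after their values were seen, and the alternatives were not run for these. Of 41 samples, 1 RNA-seq sample (clone 4 replicate 1 at 0 h) was not analysed here, and the 9 RIP-seq samples enter through the lists alone. Values of some genes that the naming rule or a list covers are not reported here.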

Additional observations from a re-analysis of the deposited data

Results flagged for a closer look

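Some WT values lay apart from the other 3 libraries of their group, by a gap larger than Dixon's 95% limit for 4 samples; chance alone flags about 1 in 20 groups, and 9 of 320 groups of values, of named members and of the members' share of all counts, were flagged. At 0 h Plin2 measured 133 TMM-scaled CPM in WT replicate 2 against 109.8 to 111.3 in the others. At 2 h WT replicate 3 was lowest for Zfp106 (537 against 555 to 557) and for Atp2a2 (420.5 against 431 to 432). At 4 h WT replicate 4 was highest for Ssr3 (720.1 against 565 to 588) and lowest for Arhgdia (529 against 593 to 604), and WT replicate 2 was highest for Gata4 (229.8 against 176 to 181). At 8 h Ptk7 was lowest in WT replicate 4 (272 against 302 to 306), Flrt3 highest in replicate 2 (219.7 against 210.3 to 210.8) and Plin2 lowest in replicate 1 (84.3 against 91.3 to 91.4).

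The change from 2 h to 8 h differed between a clone and WT by a test of the difference itself, in edgeR's quasi-likelihood test, for these named members. In clone 2 the log2 difference in change was 2.26 for Dhrs3, 1.43 for Ets1, 1.11 for Tle3, 1.05 for Igf2, -1.0 for Marcks, -0.60 for Foxp1, -0.59 for Amotl2 and -0.58 for Wls. In clone 4 it was 0.92 for Dhrs3, 0.48 for Cdk12, 0.45 for Gpi1, 0.44 for Akap12, -0.39 for Slc25a5, -0.31 for Dnmt3a and -0.31 for Nup93. These values share WT libraries between clones. As given above, the clone 4 calls and that of Igf2 in clone 2 were lost in some fits that left out a single library.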

How the results depend on the processing

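For each clone against WT, the number of members called stayed within 1.5 times under DESeq2, RLE size factors, no filter on low counts, pairs of WT libraries, the replicate block and library totals. For the pooled KO this was not so: with the replicate number as a block 0 members were called at 2, 4 and 8 h by edgeR's test (88, 136 and 42 at an unadjusted p under 0.05), where DESeq2 in the unblocked design called 127, 157 and 100; with WT replicates 1 and 2 only 28, 68 and 0, and with WT replicates 3 and 4 only 13, 29 and 0. Same-numbered libraries did not deviate together (correlation -0.10 to 0.05 between KO and WT, -0.04 to 0.21 across times in WT), so the block pairs nothing but numbers; it gave 226, 247 and 211 members for clone 2, 185, 217 and 133 for clone 4 and 39 and 8 for the differences in change. The difference in change in clone 4 gave 13 members with no filter. In fits added after the data were seen, it gave 51 without the 0 h libraries and 4 without the 4 h libraries. Without the 0 h libraries the clone 4 change gave 131 and the clone 2 difference 81. The shares of all genes called in these fits are not given here. Leaving out 1 library gave 191 to 221, 199 to 251 and 209 to 223 members for clone 2 at 2, 4 and 8 h, 119 to 175, 151 to 213 and 127 to 161 for clone 4, and 76 to 126, 111 to 163 and 20 (without WT replicate 1) to 101 for the pooled KO. For the changes it gave 137 to 157 in WT, 77 to 104 in clone 2 and 52 to 88 in clone 4, and for the differences 16 to 34 in clone 2 and 0 to 7 in clone 4; the pooled KO count at 8 h also fell to 26, 22 and 30 without WT replicate 2, 3 or 4 and to 43 and 42 without clone 2 replicate 1 or 2. A clone left with 1 library was assumed to vary like the other groups. Of the named members' called values, 1 changed sign: Hspa4 in clone 2 at 4 h, -0.020 with library totals, and the cause was not tested. Sign changes of values that were not called were not counted. Ranking limits of 150 or 600 gave shares called of 76.7 and 73.3% in clone 2 at 2 h and 11.3 and 11% for its difference in change, but 15.3 and 22.8% for the pooled KO at 8 h. Depth limits how small a difference can be shown: the shallowest library under the drug, at 4 h, held 3460172 counts.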
